A study of Komagataella pastoris with 6 samples.

Results

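The transcript pool of the control strain HTX-33 of *Komagataella pastoris* (*Pichia pastoris*) growing on methanol was described from its 3 libraries, out of 6 in the series. The libraries were chosen by their column names, and the 3 libraries of the engineered strain were not used. HTX-33 is the parent strain, its genotype is given as wild type, and the labels say no more of its background. Its cultures grew in basal salts with 0.5% methanol, and cells were taken in exponential phase. The design text calls the 3 libraries biological replicates. Polyadenylated RNA was sequenced with a stranded, ligation-based kit, and the table gives a value for 5030 genes. All 3 columns sum to 1000000, so the values were read as TPM, in which a gene's value is its share of that total after scaling for length. Levels of different genes are compared on that scale throughout, and errors are the SD over the 3 libraries. There is a single group, so nothing was tested: an exact two-sided sign-flip test over 3 libraries cannot give a p below 0.25.

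Methylotrophic yeasts oxidise methanol in peroxisomes with alcohol oxidase, which yields formaldehyde and hydrogen peroxide, and catalase removes the peroxide. Formaldehyde then takes either of 2 routes. In assimilation, dihydroxyacetone synthase joins it to xylulose 5-phosphate to give glyceraldehyde 3-phosphate and dihydroxyacetone, which dihydroxyacetone kinase phosphorylates, and sugar phosphate rearrangements rebuild the acceptor. In dissimilation, formaldehyde bound to glutathione is oxidised to formate and then to carbon dioxide, which yields NADH. Genes of this pathway are known to be strongly induced by methanol, and the alcohol oxidase promoter is widely used to drive protein production in this yeast.

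The pool was concentrated in few genes. Alcohol oxidase alone held 2.17% ± 0.07 of it (SD, n = 3), the 10 most abundant genes 11.8% ± 0.20, the top 100 39.6% ± 0.65 and the top 1000 80.5% ± 0.62. Ranked by the mean of the 3 libraries, 171 genes held 50% of the pool, 703 held 75% and 2837 held 95%. With each library ranked on its own, 50% of the pool was held by 174, 164 and 176 genes in libraries 1, 2 and 3, so library 2 was the most concentrated. The median gene had a mean of 49.8 TPM. A mean of 1000 TPM or more was reached by 3.96% of the genes, and these held 53.1% of the pool. The 3312 genes with means between 10 and 100 TPM, 65.8% of all genes, held 13.8%. Means between 1 and 10 TPM were found for 263 genes, and 12 lay under 1 TPM.

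**Figure D1:**
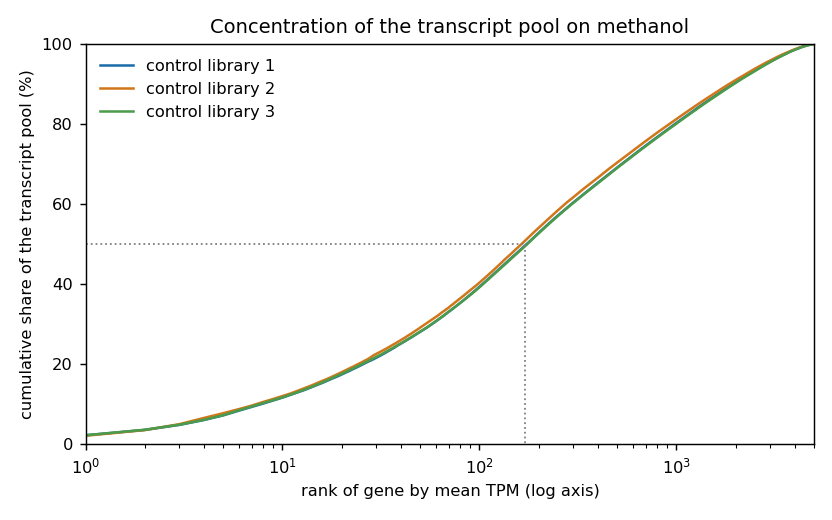
Cumulative share of the transcript pool (%) against the rank of a gene by its mean TPM (log axis), with a line for each control library. The dotted lines mark the 171 genes that hold 50% of the pool, and the line of library 2 runs slightly above the other lines at the top 10, with 12% against 11.6% and 11.7%, and at the top 100, with 40.3% against 39.3% and 39.2%.

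Library 2 differed from libraries 1 and 3 by small shifts in most genes. Among genes that averaged 10 TPM or more in the pair, the median absolute log2 difference in TPM was 0.05 between libraries 1 and 3, 0.11 between 1 and 2, and 0.11 between 2 and 3. Of 4755 genes that averaged 10 TPM or more over all 3, 66.6% had their lowest value in library 2, against 18.9% in library 1 and 14.3% in library 3. The median TPM of a gene was 47.9 in library 2, against 50.5 and 51.3. The correlation of log2 TPM across all genes, which are not independent replicates, ordered the pairs differently, with r of 0.990 for libraries 1 and 2, 0.988 for 1 and 3, and 0.986 for 2 and 3. Differences of 2-fold or more were counted only among genes that averaged 10 TPM or more in the pair. They were few, 14 to 17 of the 4738 to 4770 genes per pair, or 0.29% to 0.36%. The log2 differences, these counts and the correlations were computed on TPM + 1. Sequencing depth is unknown, and its part in this pattern was not tested.

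Genes of methanol utilisation led the named transcripts. The 9 genes placed in the pathway, 7 by their description and 2 by locus tag, are 0.179% of all genes. They held 7.0% ± 0.12 of the pool, and all 9 were among the top 100. Alcohol oxidase (PAS_chr4_0821), the enzyme of the first step, stood at 22090.4, 20873 and 22096 TPM in libraries 1, 2 and 3 and was the highest transcript in each, so all 3 libraries carry the transcript known to mark growth on methanol. Its mean was 21686 ± 704 TPM. It exceeded the next transcript of the same library 1.65-fold in library 1, 1.34-fold in library 2, where histone H4 came next, and 1.60-fold in library 3. Catalase A (PAS_chr2-2_0131), which removes the hydrogen peroxide made by the oxidase, was at 5688, 5131 and 5744 TPM. Both genes were lowest in library 2 on the deposited scale, and the ratio of oxidase to catalase changed little, at 3.88, 4.07 and 3.85. The species is known to carry a near-identical copy of alcohol oxidase, and no other gene of the table is described as one. The assignment of reads between near-identical copies is not stated in the labels or files used.

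The genes that assimilate formaldehyde spanned a wider range. The tags PAS_chr3_0834 and PAS_chr3_0832 are described as transketolases similar to Tkl2p and carry the published locus tags of the dihydroxyacetone synthases, so they were counted in the pathway. PAS_chr3_0834 was at 9613, 9051 and 9669 TPM and ranked 7th, and PAS_chr3_0832 was at 7013, 6580 and 7096 TPM and ranked 11th. The 2 genes moved together, with PAS_chr3_0834 higher by 1.37, 1.38 and 1.36 times in the 3 libraries, although their sequences are close enough that shared reads are uncertain. Dihydroxyacetone kinase (PAS_chr3_0841), which acts on the product, was far lower at 1995, 1929 and 1992 TPM. Alcohol oxidase exceeded it 11-fold ± 0.15. Classed by description alone, the 2 transketolases would leave methanol utilisation at 5.37% of the pool, below central and storage carbon metabolism, which they would bring to 6.87%.

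The dissimilation genes differed along the route. S-(hydroxymethyl)glutathione dehydrogenase (PAS_chr3_1028), which oxidises the glutathione adduct of formaldehyde, was at 6963, 7028 and 6912 TPM. S-formylglutathione hydrolase (PAS_chr3_0867), which releases formate, was at 3473, 3646 and 3401 TPM, so the dehydrogenase exceeded it 1.99-fold ± 0.05. Formate dehydrogenase (PAS_chr3_0932), which makes carbon dioxide and NADH, was highest of the route at 11485, 11755 and 11561 TPM, 1.66 times ± 0.01 the level of the formaldehyde step. A gene described as bifunctional, with alcohol dehydrogenase and glutathione-dependent formaldehyde dehydrogenase activities (PAS_chr2-1_0313), was at 2310, 2660 and 2385 TPM. On the deposited scale, and in contrast to the oxidase, catalase and transketolase genes, all 4 of these transcripts were highest in library 2. Most genes were lowest in that library, so the contrast depends on how the libraries are scaled. Median-ratio scaling would divide libraries 1, 2 and 3 by 1.018, 0.960 and 1.023, which raises library 2. Under these factors alcohol oxidase is no longer lowest in library 2, and the transketolase genes are nearly level across the libraries. Catalase stays lowest in library 2, and the 4 dissimilation transcripts stay highest there. The contrast thus holds clearly for catalase only. The lowest CV, the SD as a percentage of the mean, among the 9 pathway genes was 0.833% for PAS_chr3_1028 and the highest 7.52% for PAS_chr2-1_0313.

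**Figure D2:**
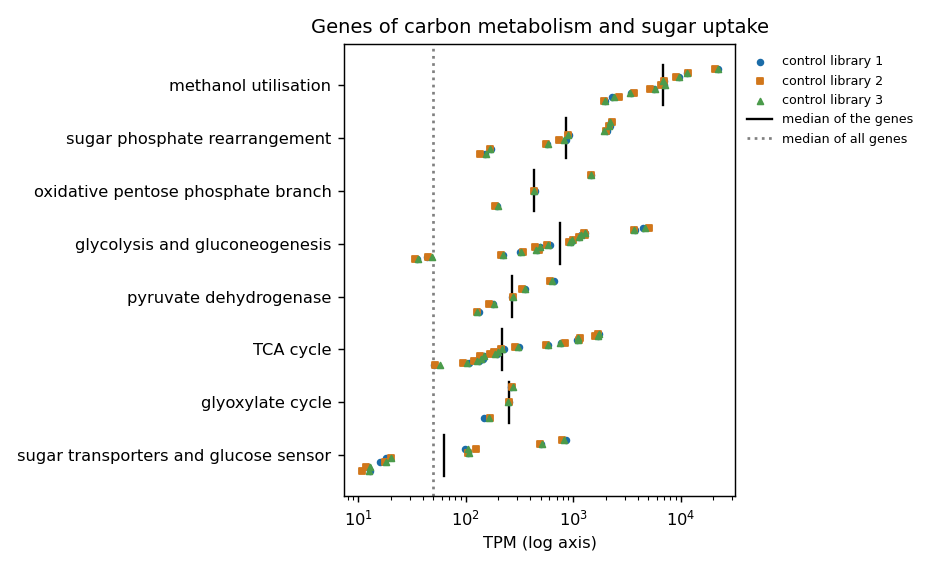
TPM (log axis) of the genes of methanol utilisation, of 6 other sets of carbon metabolism and of sugar uptake, with a symbol per library, a solid bar at the median of the genes and a dotted line at the median of all genes, 49.8 TPM. The lowest methanol gene, at 1972 TPM, lies above the median of every other set, and 4 of the 8 sugar transporters and sensors lie below the dotted line.

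Downstream of the pathway, the enzymes that rearrange sugar phosphates were also abundant. The 8 genes of this set held 0.899% ± 0.01 of the pool, with a median of 851 TPM. A pair of fructose 1,6-bisphosphate aldolases lay close together, PAS_chr1-1_0319 at 2227, 2311 and 2218 TPM and PAS_chr1-1_0072 at 2176, 2130.2 and 2145 TPM. The first was higher in all 3 libraries, by 1.05 times ± 0.03. Fructose-1,6-bisphosphatase (PAS_chr3_0868), which removes a phosphate in the direction of gluconeogenesis, was at 2050.2, 2000.2 and 1947 TPM. That was 6.10 times ± 0.29 the alpha subunit of phosphofructokinase (PAS_chr2-1_0402, 328 ± 10.2 TPM), which catalyses the opposite step. The transaldolases PAS_chr2-2_0337 and PAS_chr2-2_0338, which carry neighbouring tags, were at 900.2 ± 14.5 and 803 ± 62.3 TPM. A transketolase of the pentose phosphate pathway (PAS_chr1-4_0150) was the lowest of the set at 147 ± 9.15 TPM, and PAS_chr3_0834 exceeded it 64.3-fold ± 1.74. The oxidative branch of that pathway was led by 6-phosphogluconate dehydrogenase (PAS_chr3_0277) at 1460 ± 13.5 TPM, above glucose-6-phosphate dehydrogenase (PAS_chr2-1_0308) at 434 ± 6.83 TPM.

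The 14 genes listed for glycolysis and gluconeogenesis held 1.61% ± 0.03 of the pool and spanned 135-fold in TPM. The list leaves out the aldolases and the fructose bisphosphatase, which were counted with sugar phosphate rearrangement above. Their descriptions also name these pathways, so the share of the list does not cover them fully. Phosphoenolpyruvate carboxykinase (PAS_FragB_0061), which opens gluconeogenesis, was highest at 4506, 5055 and 4618 TPM. It was 4.81 times ± 0.25 the level of pyruvate kinase (PAS_chr2-1_0769), which closes glycolysis and was at 982, 994 and 971 TPM. Pyruvate carboxylase (PAS_chr2-2_0024), which makes the substrate of the carboxykinase, was at 471 ± 26.2 TPM. Glyceraldehyde-3-phosphate dehydrogenase (PAS_chr2-1_0437), shared by both directions, was at 3686 ± 37.8 TPM and ranked 30th of all genes. The next shared enzymes, enolase (PAS_chr3_0082), phosphoglycerate mutase (PAS_chr3_0826) and 3-phosphoglycerate kinase (PAS_chr1-4_0292), lay within a narrow range at 1286 ± 13.7, 1219 ± 64.3 and 1132 ± 2.15 TPM. Isozymes of the set were unequal: another phosphoglycerate mutase (PAS_chr3_0693) was at 45.6 ± 2.33 TPM, 26.8 times ± 2.25 below the first, and the hexokinases PAS_chr1-4_0561 and PAS_chr1-4_0447 were at 465 ± 13.9 and 34.9 ± 1.07 TPM.

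Genes that burn acetyl units were lower. The 15 genes listed for the tricarboxylic acid cycle held 0.847% ± 0.007 of the pool with a median of 219 TPM. The list holds no citrate synthase, so it does not cover the whole cycle. The 5 genes of pyruvate dehydrogenase, which feeds the cycle, held 0.156% ± 0.005 with a median of 272 TPM. Among the 15 listed, malate dehydrogenase (PAS_chr4_0815) at 1732 ± 19 TPM and aconitase (PAS_chr1-3_0104) at 1664 ± 55.2 TPM were highest. The NAD-dependent isocitrate dehydrogenase subunits (PAS_chr2-1_0120 and PAS_chr4_0580) were much lower at 127 ± 6.67 and 101.3 ± 6.32 TPM. The glyoxylate cycle, a bypass used on acetate and fatty acids, was represented by 2 malate synthases (PAS_chr4_0191 and PAS_chr1-4_0459) at 269 ± 5.74 and 250.1 ± 5.08 TPM and isocitrate lyase (PAS_chr1-4_0338) at 160.3 ± 9.90 TPM. In the wider class of central and storage carbon metabolism, 90 genes with 5.23% ± 0.05 of the pool, the highest transcript was mitochondrial alcohol dehydrogenase isozyme III (PAS_chr2-1_0472). It was at 6270, 7124 and 6466 TPM and ranked 12th of all genes.

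Respiratory genes followed. The 66 genes of the respiratory chain and ATP synthase held 3.19% ± 0.06 of the pool. Cytochrome c (PAS_chr4_0018), the soluble electron carrier, led them at 3106, 3232 and 2615 TPM and was lowest in library 3. Cytochrome c peroxidase (PAS_chr2-2_0127), which reduces hydrogen peroxide with electrons from cytochrome c, was close behind at 2883, 3000.2 and 2867 TPM. The 6 described subunits of cytochrome c oxidase lay within 1.95-fold of each other around a median of 1325 TPM. The 9 ATP synthase genes were spread over 13.6-fold around a median of 680.3 TPM, and the 5 genes of the cytochrome bc1 complex over 6.39-fold around 388 TPM. Among 129 genes of mitochondrial import and carriers, outer membrane porin (PAS_chr2-2_0392) at 3681 ± 80.0 TPM, the NAD+ transporter (PAS_chr3_0099) at 2605 ± 4.74 TPM and the ADP/ATP carrier (PAS_chr4_0210) at 2244 ± 88.7 TPM led a class with 2.27% ± 0.009 of the pool.

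Each gene was placed in the first of 32 classes whose words matched its product description, except the 2 transketolases placed in methanol utilisation by locus tag. Genes described only as a hypothetical protein or an uncharacterized protein were taken to have no product name. Genes without a product name, 2197 or 43.7% of all, formed the largest class with 32.6% ± 0.09 of the pool. Cytosolic ribosomal proteins were the largest named class at 14% ± 0.06. Methanol utilisation, central carbon metabolism, and chaperones and heat shock proteins followed. Of the 31 pairs of neighbouring classes, 27 kept the same order in all 3 libraries, so most neighbouring classes did not change places between libraries. Histones and chromatin at 3.24% ± 0.16 and the respiratory chain at 3.19% ± 0.06 were not separated: histones were higher in library 2 only. Taken as broad groups, genes for making protein, 8.23% of all genes, held 17.9% ± 0.07 of the pool. Genes of carbon and energy metabolism, 3.28% of all genes, held 15.4% ± 0.03. Genes of small-molecule synthesis, 8.31% of all genes, held 6.23% ± 0.05. The classes depend on the order in which they are matched, since 697 genes matched more than 1. If the last match is taken, the share of cytosolic ribosomal proteins becomes 0.447% (7.18% if such genes are divided equally) and that of methanol utilisation 3.33%, because those genes move to a later class whose words they also match.

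**Figure D3:**
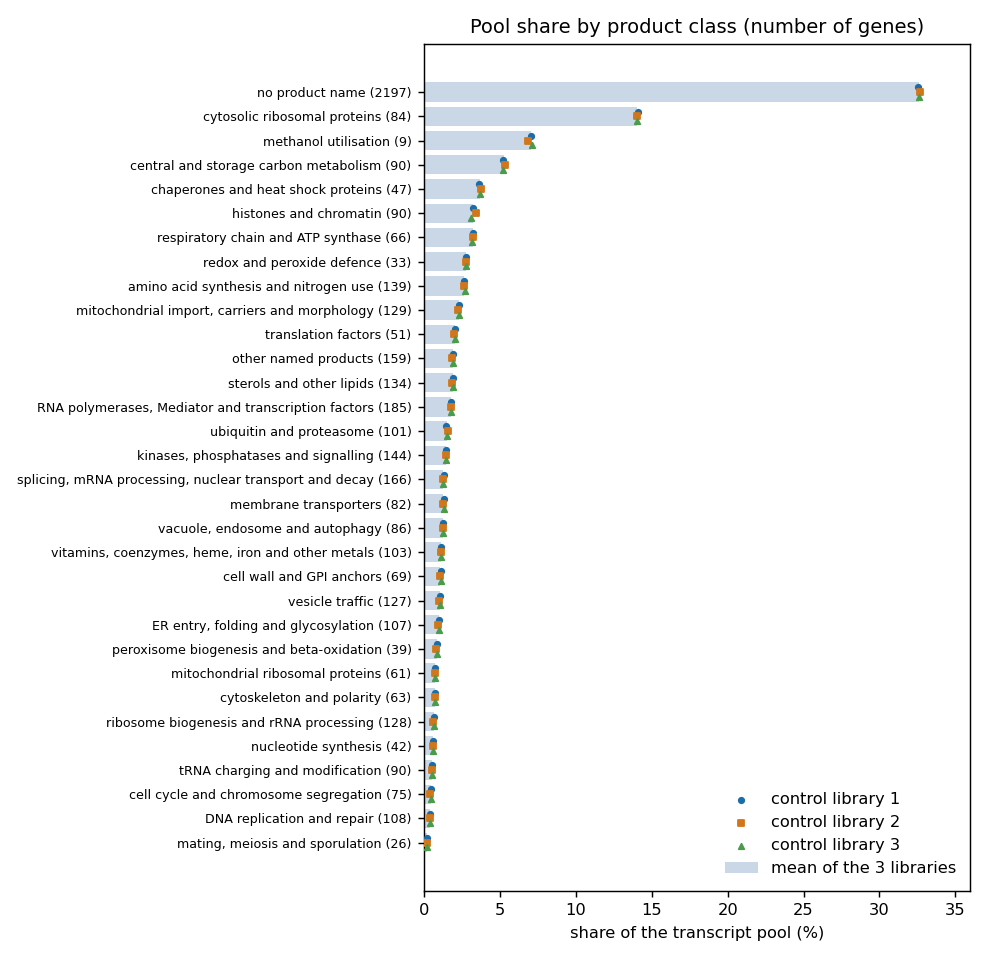
Share of the transcript pool (%) held by each class of product description, with the number of genes in brackets. Bars are means and symbols are the 3 control libraries, and the symbols of a class lie close together, with shares falling from 32.6% for genes without a product name to 0.152% for mating, meiosis and sporulation.

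Protein synthesis took its share mostly through the ribosome itself. The 84 cytosolic ribosomal protein genes, 1.67% of all genes, had a median of 1570 TPM, and 81 of them ranked among the top 500. The 48 genes of the large subunit held 8.24% ± 0.06 of the pool and the 36 of the small subunit 5.80% ± 0.02, with close medians of 1580 and 1563 TPM. Members were not equal. The highest was L43 (PAS_chr3_0335) at 5293, 5536 and 5444 TPM, and the genes of the large subunit spanned 19.7-fold, those of the small subunit 16.2-fold. L39 (PAS_chr2-1_0483) was at 4249 ± 281 TPM, L23 (PAS_chr1-3_0300) at 3623 ± 101.5 TPM, and S26 (PAS_chr2-1_0362) and S14 (PAS_chr2-1_0481) of the small subunit at 3576 ± 99.4 and 3507 ± 99.96 TPM. In baker's yeast, ribosomal protein genes often exist as near-identical pairs. Whether any of the 84 genes here form such pairs was not tested, so shared reads are uncertain.

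The rest of the translation machinery was lower, apart from a few factors. Translation elongation factor EF-1 alpha (PAS_FragB_0052), which brings aminoacyl-tRNA to the ribosome, was at 6074, 6663 and 6331 TPM and held 31.7% of the share of the 51 translation factors. EF-1 gamma (PAS_chr3_1071) was at 2109 ± 17.2 TPM and eIF-5A (PAS_chr3_1048) at 1909 ± 30.3 TPM. The 34 aminoacyl-tRNA synthetases, which charge tRNAs, had a median of 79.3 TPM and the 128 genes of ribosome biogenesis a median of 39.5 TPM, below the median of all genes. The highest of the latter, a U3 snoRNP protein of 18S rRNA maturation (PAS_chr2-1_0564), was at 223 ± 4.15 TPM. Mitochondrial ribosomal proteins, 61 genes with 0.720% ± 0.009 of the pool, were led by YmL39 (PAS_chr3_1135) at 1930 ± 95.9 TPM, which alone held 26.8% of the class, and had a median of 73.1 TPM.

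A few genes made up most of the share of chaperones and heat shock proteins. The second most abundant transcript of all was a plasma membrane protein described as protecting membranes from desiccation (PAS_chr4_0627), at 13397, 14174 and 13808 TPM. It held 37.6% of the 3.67% ± 0.09 in the class. Its description does not name a chaperone, and it alone held 1.38% of the pool. The place of the class above histones and chromatin, at 3.24%, depends on counting it. An ATPase of protein folding and stress (PAS_chr3_0230) was at 5812, 6427 and 5990 TPM, Hsp90 (PAS_chr1-4_0130) at 2699 ± 73.7 TPM, and a cytoplasmic cyclophilin (PAS_chr1-3_0264), which speeds the folding of proline bonds, at 2632 ± 58.1 TPM. The heat shock protein that works with Hsp40 and Hsp70 (PAS_chr1-3_0102) was at 1923 ± 106 TPM. The 8 genes of the cytosolic chaperonin, which folds actin and tubulin, were low and even, within 1.52-fold around a median of 102 TPM. Ubiquitin (PAS_chr4_0762), the tag for degradation, was at 3566, 4932 and 3762 TPM, highest in library 2 by a margin that set its CV at 18.1%. The 12 genes of the 20S proteasome core, which degrades tagged proteins, lay within 1.88-fold around 206 TPM, and the 17 of its regulatory particle were spread over 12.5-fold around 164 TPM.

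Genes against peroxide were prominent beyond catalase. The 33 genes of redox and peroxide defence held 2.76% ± 0.03 of the pool. A peroxiredoxin (PAS_chr1-4_0547), of a family that reduces peroxides through a cysteine, was at 7810, 7490 and 7504 TPM and ranked 9th of all genes. A thiol-specific peroxiredoxin (PAS_chr2-1_0502) was at 4997, 5007 and 4925 TPM, a spread of 0.891%. Cytoplasmic glutaredoxin (PAS_chr4_0840) was at 2919 ± 77.2 TPM and cytosolic superoxide dismutase (PAS_chr4_0786) at 1990 ± 99.5 TPM. A mitochondrial peroxiredoxin (PAS_chr1-1_0433) was lower at 1472 ± 89.1 TPM.

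Genes of the peroxisome itself, the organelle that holds alcohol oxidase, held 0.826% ± 0.02 in 39 genes with a median of 153 TPM. A peroxisomal membrane protein (PAS_chr2-1_0504) was highest at 1857, 1765 and 1824 TPM. The peroxin at the centre of the import machinery (PAS_chr4_0794) was at 625 ± 27.3 TPM, and the receptor for the C-terminal targeting signal (PAS_chr2-2_0186), which brings enzymes to the matrix, was at 440 ± 23.3 TPM. The 17 genes of peroxins and peroxisome membrane spanned 85.9-fold, and 15 of them lay above the median of all genes. Genes of fatty acid beta-oxidation, 12 in number, had a median of 184 TPM, led by a 2,4-dienoyl-CoA reductase (PAS_chr2-2_0019) at 777 ± 28.1 TPM.

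The histone share was mostly core histone. Of the 90 genes of histones and chromatin, the 4 core histones held 80.9% of the class and, together with the variant H2AZ, 87.8%, and the median gene of the class was at 38.5 TPM. Histone H4 (PAS_chr2-2_0200) was at 12277, 15566 and 12195 TPM and H3 (PAS_chr2-2_0199) at 6299, 5929 and 6010 TPM. H4 was thus 1.95, 2.63 and 2.03 times H3, with library 2 high in H4. H3 was lowest in library 2 on the deposited scale, as most genes were. H2A (PAS_chr2-1_0429) and H2B (PAS_chr2-1_0428) were closer, at 3616 ± 131.2 and 3140 ± 142 TPM, a ratio of 1.15 ± 0.01, and the variant H2AZ (PAS_chr4_0157) was at 2248 ± 137 TPM. Core histone mRNAs of many animals lack the poly(A) tail that this kit selects, whereas those of yeasts carry one. The descriptions of these 4 core histones name a further copy in baker's yeast. Whether this species holds such copies was not examined, so shared reads are uncertain. By their tag numbers, H3 and H4 are next to each other, as are H2A and H2B. Only 2 other pairs of neighbouring tags fell within the top 100: S-formylglutathione hydrolase with fructose-1,6-bisphosphatase, and glutamine synthetase (PAS_chr4_0785) with superoxide dismutase.

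**Figure D4:**
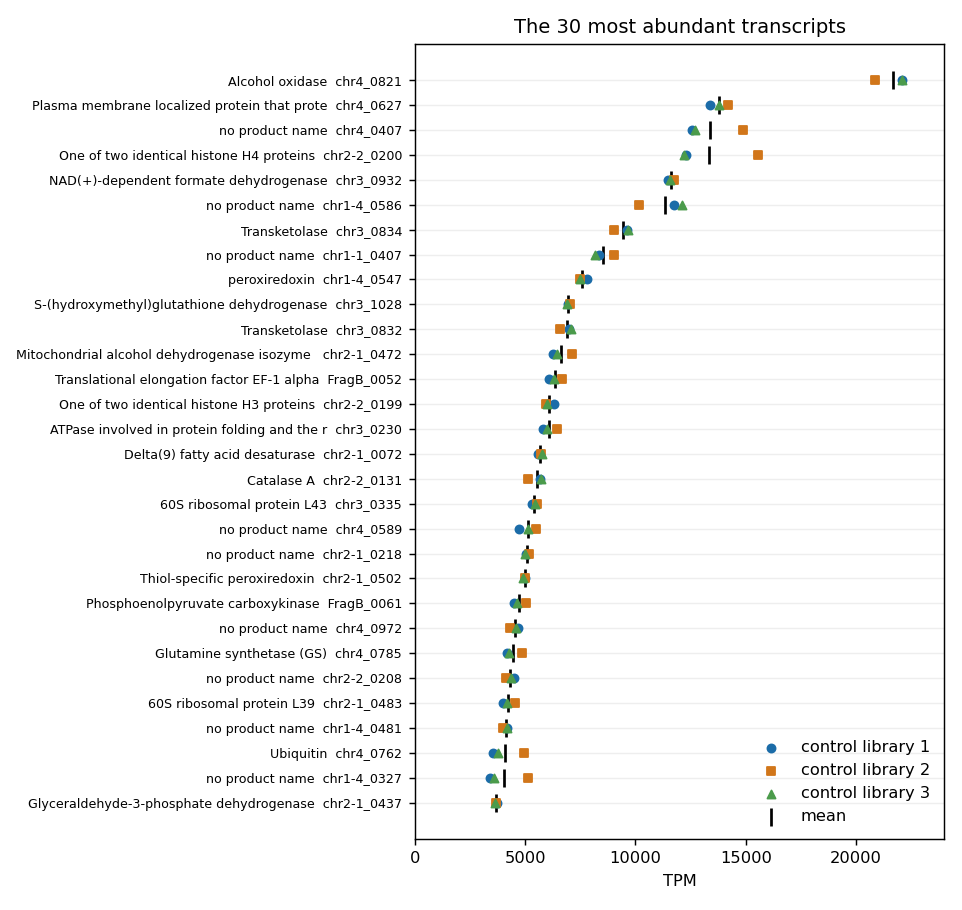
TPM of the 30 most abundant transcripts in each control library (symbols) with the mean (vertical bar), ordered by mean and labelled by product and locus tag. Alcohol oxidase stands apart at 21686 TPM, 9 of the 30 have no product name, and library 2 departs from the other libraries in histone H4, PAS_chr4_0407 and PAS_chr1-4_0327.

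Among smaller classes of metabolism, glutamine synthetase, which fixes ammonia, was at 4183, 4885 and 4270 TPM and held 16.8% of the 139 genes of amino acid synthesis and nitrogen use. NADP-dependent glutamate dehydrogenase (PAS_chr1-1_0107), also an ammonia-fixing enzyme, was at 1526 ± 38.6 TPM, and acetohydroxyacid reductoisomerase (PAS_chr1-1_0432) of branched-chain synthesis at 1268 ± 20.4 TPM. The next enzyme of that pathway, dihydroxyacid dehydratase (PAS_chr1-4_0458, ILV3), whose gene is overexpressed in the strain not used here, ranked 1633rd at 86.5 ± 6.19 TPM. The Delta(9) fatty acid desaturase (PAS_chr2-1_0072), which makes unsaturated fatty acids, was at 5596, 5743 and 5748 TPM and held 30.3% of the 134 lipid genes. The 21 genes of ergosterol synthesis were far lower, with a median of 91.8 TPM and C-5 sterol desaturase (PAS_chr1-4_0367) highest at 909.8 ± 73.7 TPM. Thiazole synthase (PAS_chr3_0648), of thiamine synthesis, led the vitamin and metal genes at 915 ± 45.8 TPM, ahead of 5-aminolevulinate synthase (PAS_chr2-1_0716), which opens heme synthesis, at 470.3 ± 17.8 TPM.

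At the cell surface, an endo-beta-1,3-glucanase (PAS_chr1-4_0426), described as a major cell wall protein, was at 1554 ± 61.5 TPM, and a membrane-anchored aspartic protease (PAS_chr3_0303) at 1367 ± 59.0 TPM. The highest transporters were a myo-inositol transporter (PAS_chr4_0828) at 1829, 1816 and 1878 TPM, a putative ammonia exporter (PAS_chr1-1_0417) at 1437 ± 62.4 TPM and a lactate transporter (PAS_chr3_0440) at 1100.1 ± 26.4 TPM. Sugar transporters were unequal although no sugar is named in the medium. A high-affinity glucose transporter (PAS_chr1-4_0570) was at 848, 784 and 820.7 TPM, while another gene with that description (PAS_chr2-1_0006) was at 19.4 ± 1.06 TPM. A hexose transporter of moderate affinity (PAS_chr1-3_0004) was at 17.2 ± 0.99 TPM and a putative hexose transporter (PAS_chr2-1_0054) at 12.3 ± 0.55 TPM.

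The secretory route, with ER, vesicle, cell wall and vacuole genes together, held 4.27% ± 0.11 of the pool in 389 genes, 7.73% of all genes. Its share was lowest in library 2 at 4.15%, where most genes were lowest on the deposited scale. Subunit E of the vacuolar proton pump (PAS_chr3_0704) was at 1200.3 ± 97.4 TPM, and the vacuolar proteases proteinase A (PAS_chr3_1087) and proteinase B (PAS_chr1-1_0226) were at 980.4 ± 14.8 and 822 ± 26.4 TPM. Protein disulfide isomerase (PAS_chr4_0844), which forms disulfide bonds in the ER, was at 345 ± 14.99 TPM. Calmodulin (PAS_chr2-1_0758), the calcium sensor, led the signalling genes at 1076, 1373 and 1089 TPM and was highest in library 2. Cofilin (PAS_chr1-4_0027), which severs actin filaments, was at 921 ± 109 TPM and beta-tubulin (PAS_chr4_0533) at 314 ± 12.5 TPM.

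The lowest shares belonged to nuclear and developmental classes. DNA replication and repair, 108 genes, held 0.398% ± 0.02, with PCNA (PAS_chr3_0233), the sliding clamp of replication, at 137 ± 8.23 TPM. Cell cycle genes held 0.429% ± 0.03 and were lowest in library 2, at 0.400% against 0.446% and 0.441%. Most genes were lowest in that library on the deposited scale. The 24 nuclear RNA polymerase subunits had a median of 45.3 TPM. Mating, meiosis and sporulation, 26 genes or 0.517% of all genes, held 0.152% ± 0.003, the smallest share. Its genes were not the lowest class by median, at 39.5 TPM. The lowest class median was that of DNA replication and repair, at 23.995 TPM. Low members included the receptor for alpha-factor (PAS_chr4_0123) at 8.80 ± 0.71 TPM, a kinase that activates meiosis (PAS_chr1-3_0041) at 2.81 ± 0.52 TPM, and a kinase described as expressed at the end of meiosis (PAS_chr1-1_0365) at 2.11 ± 0.34 TPM. Not all were low: a kinase of entry into meiosis (PAS_chr1-4_0368) was at 332 ± 13.1 TPM.

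Genes without a product name, 43.7% of all genes, were a smaller proportion of the abundant transcripts, yet some ranked very high. They were 3 of the top 10, 9 of the top 30, 27 of the top 100 and 362 of the top 1000. Their proportion fell with abundance, from 55.9% of the genes between 1 and 10 TPM to 25.6% of those at 1000 TPM and over. The highest was PAS_chr4_0407 at 12552, 14859 and 12689 TPM, and it ranked 3rd of all genes. PAS_chr1-4_0586 was at 11728, 10154 and 12126 TPM, and PAS_chr1-1_0407 at 8333, 9046 and 8179 TPM. These moved in different directions in library 2, which was highest for PAS_chr4_0407 and PAS_chr1-1_0407 and lowest for PAS_chr1-4_0586. Further unnamed genes of the top 30 were PAS_chr4_0589 at 5132 ± 384 TPM, PAS_chr2-1_0218 at 5082 ± 102 TPM, PAS_chr4_0972 at 4544 ± 193 TPM, PAS_chr2-2_0208 at 4340.1 ± 185 TPM, PAS_chr1-4_0481 at 4128 ± 120.1 TPM and PAS_chr1-4_0327 at 4053 ± 958 TPM. The next below was PAS_chr1-1_0118 at 3388 ± 115 TPM.

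Transcript levels were spread over the chromosomes nearly in proportion to gene number, taking the chromosome from the locus tag. Chromosome 1, with 28.8% of the genes, held 25.8% ± 0.13 of the pool, chromosome 2 27.2% ± 0.15 with 26.4%, chromosome 3 21.9% ± 0.18 with 23.4%, and chromosome 4 21.9% ± 0.16 with 18.8%. Chromosome 4 carries the 3 most abundant transcripts.

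Among neighbours in the order of abundance, few were separated in every library. Of the 29 neighbouring pairs within the top 30, the gene with the higher mean was higher in all 3 libraries in 10 pairs, in 2 libraries in 14 and in 1 library in 5. Alcohol oxidase was above the second gene in all 3. The next 3 genes, with means of 13793, 13367 and 13346 TPM, had no fixed order, and formate dehydrogenase was above PAS_chr1-4_0586 in library 2 only. Without library 2, 23 of the 29 pairs kept one order in the 2 libraries left, which is easier to meet with fewer libraries. Without library 1 or library 3 the number was at least 14. The membership of the top was steadier than its order, since 27 genes were in the top 30 of every library and 92 in the top 100 of every library.

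Replicate spread fell with abundance up to 1000 TPM, and beyond that its direction depended on the scaling. The median CV was 11.2% for genes with means of 1 to 10 TPM, 6.09% from 10 to 100 TPM, 3.99% from 100 to 1000 TPM and 3.32% at 1000 TPM and over. Without library 2 these became 6.59%, 3.13%, 2.14% and 1.68%. A median CV over 2 libraries tends to be lower than over 3, so the fall is not due to library 2 alone. In the bin of 1 to 10 TPM it was at most 10.6% whichever library was left out. With median-ratio scaling of the 3 libraries they were 9.36%, 4.59%, 3.77% and 5.0%, so the most abundant genes then had a larger spread than those from 100 to 1000 TPM. Of the 1443 genes that averaged 100 TPM or more, 1326 or 91.9% had a CV under 10% and 15 or 1.04% a CV over 25%. By class and at that level, the median CV ran from 1.69% for the 13 tRNA charging and modification genes to 6.48% for the 13 cell cycle genes, with 3.09% for the 84 cytosolic ribosomal proteins and 3.60% for the 9 methanol genes. On the deposited scale, threonine aldolase (PAS_chr4_0112) was the most even, at 192.3, 192.4 and 192.1 TPM. It was followed by the mitochondrial NAD+ transporter at 2610, 2600.1 and 2605 TPM, with a CV of 0.182%, and 3-phosphoglycerate kinase at 1133.2, 1133 and 1129 TPM. Median-ratio scaling changes library 2 against the others, so values this close would not stay so. The most even genes under it were not listed.

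**Figure D5:**
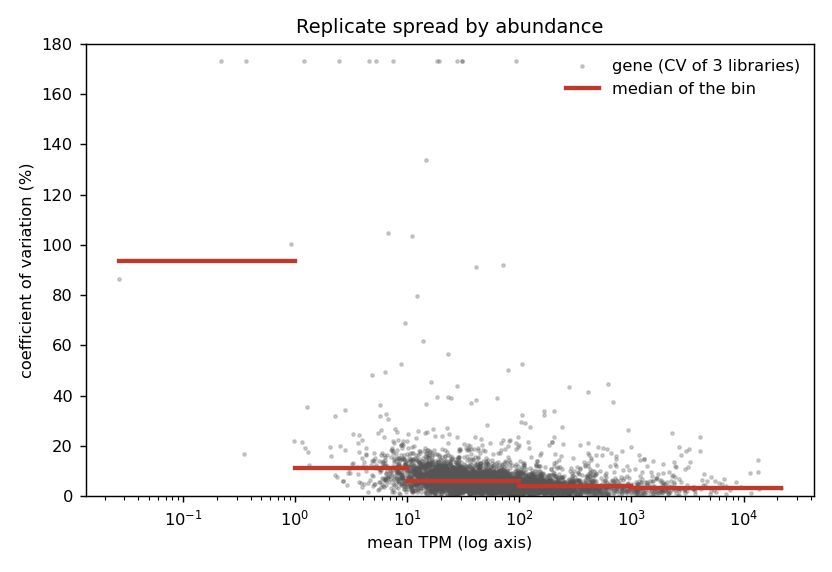
Coefficient of variation over the 3 control libraries (%) against mean TPM (log axis), with a point per gene and a red bar at the median of each range of the mean. The bars fall from 11.2% at 1 to 10 TPM to 3.32% at 1000 TPM and over (5.0% there with median-ratio scaling), and the row of points at 173% holds genes listed at 0 in 2 of the 3 libraries.

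Of the 15 genes with a CV over 25%, 10 have no product name, against 532 (36.9%) of the 1443 genes at that level. Another of the 15, PAS_chr1-3_0158, is described as a hypothetical protein identified by homology and was counted as named. The 5 least even follow. PAS_chr1-4_0070 was at 69.8, 169 and 77.2 TPM, the highest CV of those genes at 52.5%, followed by PAS_chr1-3_0076 at 721, 304 and 819 TPM. The copper chaperone of cytochrome c oxidase assembly (PAS_chr3_0745) was at 383, 146 and 303 TPM, and PAS_chr1-4_0369 and PAS_chr2-1_0612 were at 257, 594 and 380.3 TPM and at 469.2, 977 and 626 TPM. In all 5, library 2 lay outside the other libraries, above them in 3 and below them in 2.

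At the low end, 6 genes were listed at 0 in all 3 libraries and 20 in 1 or 2 of them, and none of these has a product name. Some are far from 0 in another library. The gene with the highest mean among the 20, named after its values were seen, is PAS_chr4_0350, listed at 0 in libraries 1 and 2 and at 279 TPM in library 3. An exact 0 in a table without counts can be a failed estimate, so only the listed values are given. Of the 12 genes with a mean under 1 TPM, 11 have no product name, and the other is a major facilitator superfamily transporter (PAS_chr1-4_0636) at 0.83, 0.87 and 1.22 TPM.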

How the data were processed

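Per the labels' protocols, mRNA libraries were made from 1 μg of total RNA with a stranded kit. The submitters' processing notes name HISAT2, TopHat2 and DESeq2. Their versions and order, the build and the annotation were not given in the sources used here. Each deposited column is headed FPKM but sums to 1000000 (within 0.15), so the authors' values were treated as deposited TPM. The sum alone does not show scaling by length. Depth per library is unknown, so no interval was computed and no count test was run.

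Genes were ranked by the mean of the 3 control columns with Python 3.11.15, pandas 2.3.3 and numpy 2.4.6. Shares were computed in each library and averaged. Each gene took the first of 32 ordered classes matching its description, except 2 transketolases placed in methanol utilisation by published locus tag. Of 5030 IDs, 0 matched the reference gene table. The 186 named genes are the top 30, the 5 highest of each class, the 10 highest without a product name, the 5 highest and 5 lowest CVs at a mean of at least 100 TPM, the methanol genes, ILV3, and the lowest hexose transporter and mating or meiosis genes. Pathway lists were added beside them. The rule, classes and lists were chosen with earlier results of these data known. The 3 columns of the other strain were not used. The computation was tested on simulated data. The alternatives tried were each library left out, ranking by median, the total without alcohol oxidase or without unnamed genes, a minimum mean of 1 TPM, other handling of genes that match several classes, median-ratio scaling, pseudocounts of 0.1 and 5 in place of 1, and genes above 0 in every library.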

Additional observations from a re-analysis of the deposited data

How the results depend on the processing

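The shares depend on what is counted in the total and on how genes are classed, more than on the library left out. Without alcohol oxidase, the top 1, 10 and 100 genes held 1.41%, 10.5% and 38.4%, and the shares of genes without a product name, cytosolic ribosomal proteins, methanol utilisation and central carbon metabolism became 33.3%, 14.3%, 4.94% and 5.35%. With named genes only in the total, the ribosomal, methanol, central carbon and chaperone shares were 20.8%, 10.4%, 7.77% and 5.45%. With the last matching class, the ribosomal, methanol and central carbon shares were 0.447%, 3.33% and 5.73%, and 2 of the top 5 classes were still among the top 5. With genes shared equally among matching classes they were 7.18%, 5.03% and 5.57%. With the dihydroxyacetone synthase tags classed by description alone, an alternative chosen after seeing the data, methanol utilisation held 5.37% and central carbon 6.87%. Ranking by the median and a minimum mean of 1 TPM moved none of the 7 and 39 values computed under them by more than their spread.

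With 1 library left out, the top 1, 10, 100 and 1000 genes held 2.15% to 2.21%, 11.7% to 11.8%, 39.2% to 39.8% and 80.2% to 80.7%, and 169 to 175 genes held 50%. The shares of unnamed genes, ribosomal proteins, methanol, central carbon and chaperones ranged from 32.6% to 32.7%, 14% to 14.1%, 6.96% to 7.07%, 5.20% to 5.25% and 3.62% to 3.71%. The median CV ranged from 19.6% to 141% under 1 TPM, where the 6 genes not listed at 0 throughout gave 93.6%, and from 6.59% to 10.6%, 3.13% to 6.47%, 2.14% to 4.08% and 1.68% to 3.74% in the next bins, each lowest without library 2. The count of neighbouring pairs in 1 order ranged from 14 to 23. Median-ratio scaling raised the median CV at 1000 TPM and over to 5.0%, and for genes above 0 in every library it was 19.5% under 1 TPM. The causes were not tested. No paired analysis was possible because there is 1 group and the results come from no test. Unknown depth sets the limit: how much of the spread of low genes is counting error cannot be told.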
